A study of Mus musculus with 9 samples.

Results

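The terminal complement components are the 7 plasma proteins that build the membrane attack complex, and their genes in the mouse are *Hc* (the mouse name of C5), *C6*, *C7*, *C8a*, *C8b*, *C8g* and *C9*. They were taken by platform gene symbol from the 22206 transcript clusters of a Clariom S mouse array, and where a symbol had several clusters the one with the highest mean over the 9 arrays was to be used. Each of the 7 genes had 1 cluster, so no choice was needed. Whole-liver RNA was profiled from 3 groups of 3 male mice on a C57BL/6JHamSlc background. These were ob/ob mice gavaged with *Vigna umbellata* (rice bean) extract at 100 mg/kg for 42 days, ob/ob mice given vehicle for 42 days, and wild-type mice (C57BL/6JHamSlc-+/+) given vehicle for 42 days. All mice were 6 weeks old before acclimatization and ate standard chow. The ob/ob mouse lacks functional leptin in every tissue and becomes obese with a fatty liver, so its liver carries the effects of obesity as well as of the missing hormone. No wild-type group received the extract.

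Terminal complement begins when a convertase cleaves C5. The larger fragment, C5b, binds C6 and then C7, C8 docks the complex into a membrane, and copies of C9 polymerise into a pore. C6, C7, the alpha and beta chains of C8 and C9 share a pore-forming domain with perforin, C5 belongs to the family of C3 and C4, and the gamma chain of C8 is a small lipocalin bound to the alpha chain. Hepatocytes secrete most of these proteins, and in mice several of them are known to be more abundant in males than in females.

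The 9 arrays had medians of 5.07 to 5.36 log2. Replicate 3 of ob/ob vehicle and replicate 3 of wild type stood apart from their groups, with correlations of 0.948 and 0.955 at the lowest against 0.980 to 0.990 between the other 2 arrays of the same groups. Values that omit both arrays are given beside the main results below. Of the 6 hepatocyte markers, 0 were called in any comparison, and their summed level was 21.73 to 21.85 log2 in ob/ob extract, 21.64 to 21.81 in ob/ob vehicle, with 21.88 to 22.09 in wild type. The sum is set mainly by the brightest markers and may miss changes in the others. In ob/ob vehicle against wild type 2 of the 6 were lower at an unadjusted limma p under 0.05, and the median marker difference was -0.35 log2. No terminal component sat at the top of the scale on any array.

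Values are log2 signals on the authors' SST-RMA scale, a signal space transformation meant to counter the compression of fold changes on arrays, and they may be compared between arrays for 1 gene but not between genes. Differences were tested with limma over all 22206 clusters, and a gene was called at a Benjamini-Hochberg adjusted p under 0.05. The falls of *C6* and *C8b* in ob/ob liver were known from earlier results of these data when the genes were grouped. For these 2 genes the comparisons with wild type are therefore descriptions. The set was thus partly chosen by the low signals of these 2 genes in ob/ob liver, and the other 5 genes are members by their place in the pathway.

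**Figure D1:**
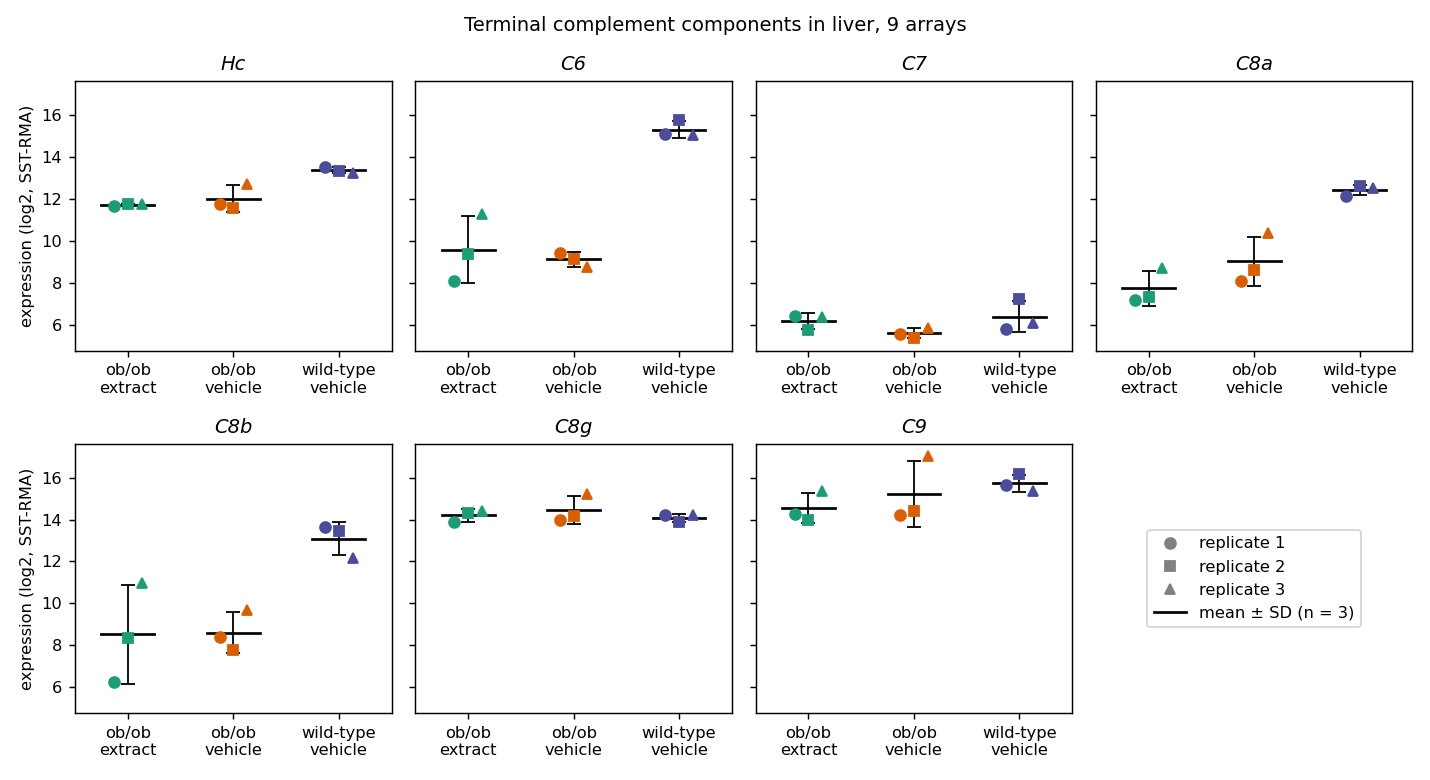
Liver expression (log2, SST-RMA) of the 7 terminal complement genes, 1 panel per gene, with ob/ob extract, ob/ob vehicle and wild-type vehicle from left to right. Each point is 1 array, the marker gives the replicate, and bars are the mean ± SD (n = 3); all ob/ob points of C6, C8a, C8b and Hc lie below the wild-type points, while those of C8g and C7 are intermixed with them.

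The first comparison asked how the liver of vehicle-treated ob/ob mice differs from that of wild type. *C6*, *C8b*, *C8a* and *Hc* were lower in ob/ob vehicle, with log2 differences of -6.20, -4.47, -3.39 and -1.36, whereas *C7*, *C9* and *C8g* did not pass the test. Of the 5 genes other than *C6* and *C8b*, 2 were called lower (*C8a* and *Hc*) and 0 higher, beside 0.68% of all clusters called lower, 2.28% called higher and 2.96% called in either direction. The low values of *C6* and *C8b* restate what was known when the set was formed. In whole liver, fewer cells of a type and less RNA per cell cannot be told apart. The median difference was -0.78 log2 over these 5 genes and -1.36 over all 7, beside -0.06 over all clusters. The 5-gene median is the value of *C7*, which was not called and lay near background. The 7-gene median is that of *Hc* and counts *C6* and *C8b*. Neither shows a shift of the whole set. In 2 of the 5 genes every ob/ob vehicle value lay under every wild-type value, which held for 9.78% of all clusters.

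*Hc* encodes C5, whose cleavage starts the pathway and also releases the chemoattractant C5a. It was at 11.75, 11.55 and 12.72 log2 in ob/ob vehicle replicates 1 to 3, against 13.52, 13.34 and 13.24 in wild type. The groups did not overlap, and replicate 3 of ob/ob vehicle lay nearest to wild type. The difference was -1.36 log2 (SE 0.31, adjusted p = 0.0445), a 2.57-fold lower signal. This call was close to the threshold. With the replicate number as a block it was lost (adjusted p = 0.0608), as it was when any 1 array other than ob/ob vehicle 3 was left out (0.0712 to 0.161). Without ob/ob vehicle 3 the adjusted p was 0.00277. When both outlying arrays were omitted, the difference was -1.78 (0.00238).

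*C6* encodes the protein that captures freshly formed C5b. It was at 9.43, 9.13 and 8.76 log2 in ob/ob vehicle, against 15.10, 15.77 and 15.04 in wild type. The gap between the highest ob/ob vehicle value and the lowest wild-type value was 5.61 log2, wider than the 0.67 and 0.73 log2 spanned within ob/ob vehicle and wild type. The difference was -6.20 log2 (SE 0.63), or 73.3-fold on the transformed scale, and 0.018% of all clusters had a lower difference. This rank is a description, since the fall of *C6* was known when the set was formed. Unlike *Hc*, *C8a*, *C8b* and *C9*, *C6* had its lowest ob/ob vehicle value on replicate 3. Leaving out any 1 array kept the difference between -6.36 and -5.96.

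The 3 chains of C8 gave unequal differences. *C8a* encodes the alpha chain, which inserts into the membrane. It was at 8.10, 8.62 and 10.35 log2 in ob/ob vehicle, against 12.13, 12.61 and 12.51 in wild type. The groups were 1.78 log2 apart, with ob/ob vehicle 3 again nearest to wild type. The difference was -3.39 log2 (SE 0.56, adjusted p = 0.013). Omitting ob/ob vehicle 1, ob/ob vehicle 2 or wild type 2 ended the call (adjusted p = 0.0532, 0.0608 and 0.0714). Omitting both outlying arrays gave -4.01 (0.000629).

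*C8b*, the beta chain that binds C8 to the nascent C5b to C7 complex, was at 8.38, 7.78 and 9.67 log2 in ob/ob vehicle, against 13.63, 13.44 and 12.18 in wild type. The groups were 2.51 log2 apart, and replicate 3 of each group was the one nearest to the other group. The difference was -4.47 log2 (SE 0.97), and it was -5.45 with both outlying arrays omitted. Leaving out 1 array kept the difference between -5.00 and -4.06. As a description, its adjusted p stayed under 0.05 in only 3 of these 9 fits.

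*C8g*, the lipocalin chain, was at 14.00, 14.17 and 15.24 log2 in ob/ob vehicle, against 14.21, 13.87 and 14.20 in wild type. The groups overlapped, and only ob/ob vehicle 3 lay above the wild-type values. The difference was 0.38 log2 (95% interval -0.37 to 1.13, adjusted p = 0.636), and it was -0.01 without ob/ob vehicle 3 and 0.04 with both outlying arrays omitted. The log2 signal of *C8g* minus that of *C8a* on the same array was 5.90, 5.55 and 4.89 in ob/ob vehicle, against 2.08, 1.26 and 1.69 in wild type, so the difference between the 2 chains was larger on every ob/ob vehicle array than on any wild-type array.

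*C7*, which makes the complex lipophilic so that it can attach to a membrane, lay near background. It was at 5.57, 5.35 and 5.84 log2 in ob/ob vehicle, against 5.81, 7.20 and 6.09 in wild type. On 2 of 3 ob/ob vehicle arrays and 1 of 3 wild-type arrays it lay under the 97.5th percentile of the olfactory receptor genes on the same array, a family expressed mainly in the nose. The difference was -0.78 log2 (interval -1.59 to 0.03, adjusted p = 0.317), and it was -0.36 without wild type 2, the highest array, and -1.04 with both outlying arrays omitted.

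*C9*, which forms the wall of the pore, was at 14.23, 14.41 and 17.03 log2 in ob/ob vehicle, against 15.66, 16.15 and 15.36 in wild type. Replicates 1 and 2 of ob/ob vehicle lay under all wild-type values and replicate 3 lay above them all. The difference was -0.50 log2 (interval -1.97 to 0.97, adjusted p = 0.765). Without ob/ob vehicle 3 it was -1.40 (adjusted p = 0.0616), without ob/ob vehicle 1 it was -0.0033, and with both outlying arrays omitted it was -1.58 and called (0.037). The mean level of 16 acute phase genes was 11.82, 12.03 and 14.24 log2 on ob/ob vehicle 1 to 3, against 10.62, 11.04 and 10.40 in wild type, so the same array was highest for both. The part of that response in the *C9* value was not tested.

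**Figure D2:**
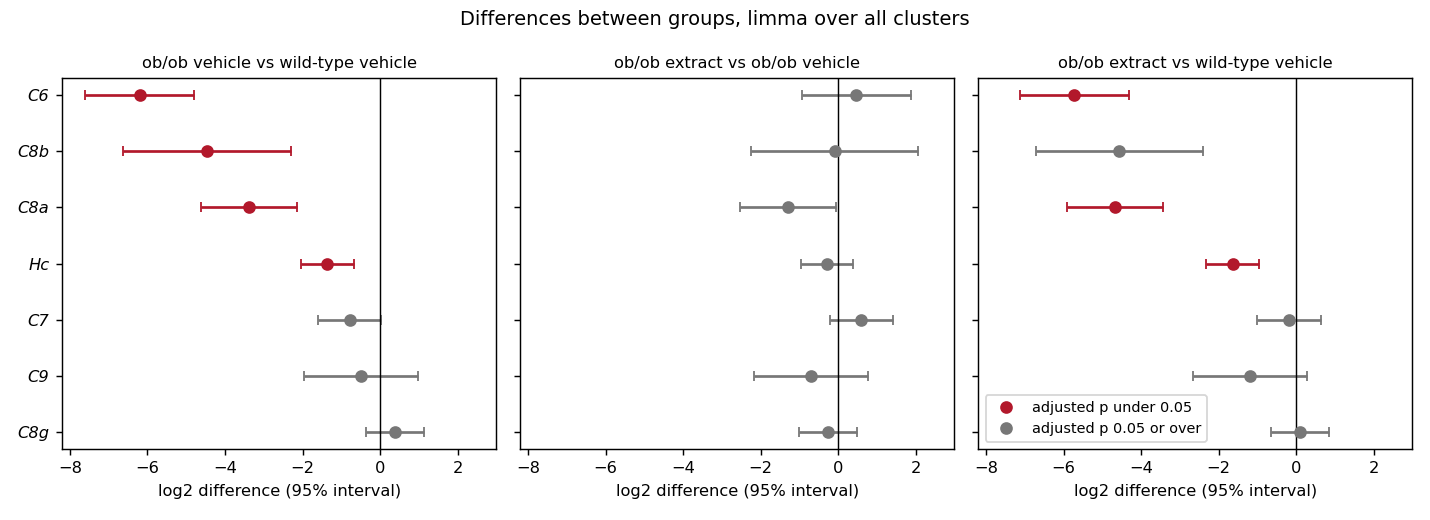
Log2 differences of the 7 genes with 95% intervals from limma, 1 panel for each of the 3 group comparisons. Red marks an adjusted p under 0.05; C6 (-6.20 and -5.72), C8a (-3.39 and -4.68) and Hc (-1.36 and -1.64) are red in both comparisons with wild type, C8b in the first (-4.47), and none is red between the ob/ob groups; for C6 and C8b against wild type the colour is a description.

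Windows before a start site are shown for the 4 genes that were lower in ob/ob liver, because these genes moved in the same direction. Each is the 250 bases before an annotated start site, 5′ to 3′ on the gene's own strand, from RefSeq on GRCm38.p6, which held all 7 genes. They lie at chr15:4726960-4727209 (plus strand) for *C6*, chr4:104876399-104876648 (minus strand) for *C8a*, chr4:104766067-104766316 (plus strand) for *C8b* and chr2:35061413-35061662 (minus strand) for *Hc*. Capitals mark matches on either strand to 3 short motifs. The STAT factor motif was TTCNNNGAA. For the HNF4 core the letters were CAAAG, and for the TATA box they were TATAAA.
C6: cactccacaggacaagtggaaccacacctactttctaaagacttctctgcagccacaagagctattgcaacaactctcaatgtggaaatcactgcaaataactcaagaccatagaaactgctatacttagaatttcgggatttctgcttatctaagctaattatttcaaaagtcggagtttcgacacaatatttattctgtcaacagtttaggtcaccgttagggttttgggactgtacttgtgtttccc
C8a: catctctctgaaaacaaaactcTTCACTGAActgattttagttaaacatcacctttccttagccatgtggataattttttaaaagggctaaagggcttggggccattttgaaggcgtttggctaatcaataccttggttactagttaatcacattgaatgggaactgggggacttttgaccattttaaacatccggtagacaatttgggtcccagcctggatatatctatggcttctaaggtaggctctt
C8b: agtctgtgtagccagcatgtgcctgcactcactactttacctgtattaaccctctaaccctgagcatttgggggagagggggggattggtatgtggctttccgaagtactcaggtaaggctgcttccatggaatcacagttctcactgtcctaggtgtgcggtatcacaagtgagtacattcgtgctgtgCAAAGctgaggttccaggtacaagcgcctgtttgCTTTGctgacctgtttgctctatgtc
Hc: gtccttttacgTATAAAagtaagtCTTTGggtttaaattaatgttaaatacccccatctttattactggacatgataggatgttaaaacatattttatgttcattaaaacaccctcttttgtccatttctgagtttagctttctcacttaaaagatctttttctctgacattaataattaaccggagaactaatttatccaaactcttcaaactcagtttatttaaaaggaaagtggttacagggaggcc

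No 2 of these motifs overlapped in the 4 windows. TTCNNNGAA stood in *C8a* and in *C7*, which was not called, and in 7.02% of the 32851 windows in the table. CAAAG stood in every gene but *C6* and *C8a*, as in 48.6% of all windows, and TATAAA in *Hc* and *C7* (12.4%). The TATAAA match of *Hc* lay 239 to 234 bases before the start site used, inside the annotated gene span. That of *C7* lay 6 to 1 bases before its start on the opposite strand. Matches were counted by letters alone, whatever their position, and their function was not tested. The window of *C6*, the gene with the largest fall of the 7, held none of the 3 motifs. *C8a* and *C8b* are neighbours on chromosome 4, with 0 genes listed between them, and *C6*, *C7* and *C9* all lie on chromosome 15. *C7* has 1 protein-coding gene between it and *C6* and was not called.

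The next comparison set extract-treated against vehicle-treated ob/ob mice. None of the 7 genes was called by limma (adjusted p from 0.767 to 0.992), beside 0% of all clusters. At an unadjusted p under 0.05 stood 1 of the 7 genes and 1433 clusters (6.45%), array weights called 106 clusters, and omitting both outlying arrays gave 360 called clusters with 0 of the 7 genes among them. The difference lay below 0 in 5 of the 7 genes, as in 51.5% of all clusters. In all 7 the groups overlapped, whereas 13.6% of all clusters had groups that did not. The median difference over the 7 genes was -0.27 log2, beside -0.01 over all clusters.

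The largest difference between the ob/ob groups was that of *C8a*, at 7.18, 7.34 and 8.69 log2 in ob/ob extract, against 8.10, 8.62 and 10.35 in ob/ob vehicle. The highest extract value lay above 2 of the 3 vehicle values. The difference was -1.29 log2 (SE 0.56, interval -2.53 to -0.05, adjusted p = 0.767). It was the gene that met the design text's criterion of an unadjusted p under 0.05 with a fold over 1.1, which 2.9% of all clusters met in that direction. Without ob/ob vehicle 3 it was -0.62. Its direction was away from wild type.

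*C6* was at 8.10, 9.37 and 11.27 log2 in ob/ob extract, which reached both below and above the 8.76 to 9.43 of ob/ob vehicle. The difference was 0.47 log2 (interval -0.93 to 1.88), and it was -0.37 without extract 3 and 1.21 without extract 1. *C8b* was at 6.25, 8.36 and 10.96 in ob/ob extract, a range of 4.71 log2 that enclosed all 3 vehicle values, and differed by -0.09 (interval -2.25 to 2.07). These intervals leave room for changes of over 1 log2 in the extract group. *Hc* was at 11.67, 11.75 and 11.75, close together, and differed from ob/ob vehicle by -0.28 (interval -0.96 to 0.39). Leaving out ob/ob vehicle 3, alone or with wild type 3, turned the differences of *Hc* (0.07), *C8b* (0.44), *C8g* (0.12) and *C9* (0.22) positive.

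The remaining genes gave values of the same kind. *C9* was at 14.27, 13.99 and 15.35 log2 in ob/ob extract and differed from ob/ob vehicle by -0.69 (interval -2.16 to 0.78). *C8g* was at 13.86, 14.33 and 14.42 and differed by -0.27 (interval -1.02 to 0.48). *C7* was at 6.42, 5.76 and 6.37 and differed by 0.60 (interval -0.22 to 1.41).

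**Figure D3:**
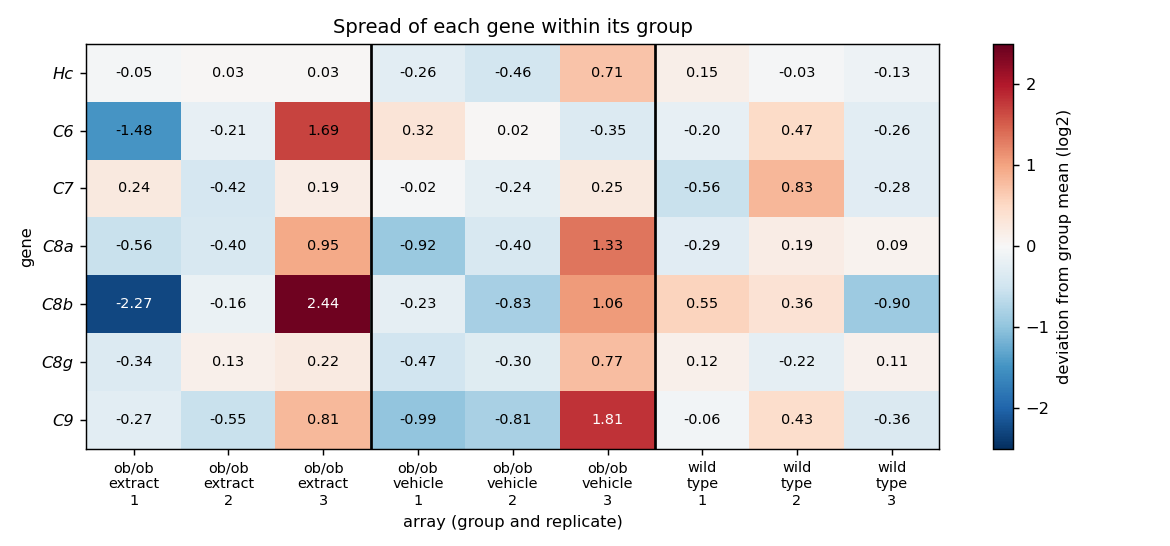
Deviation of each array from the mean of its own group (log2, colour and number) for the 7 genes, with the arrays of ob/ob extract, ob/ob vehicle and wild type from left to right. In ob/ob extract C6 and C8b are lowest on array 1 (-1.48 and -2.27) and highest on array 3 (1.69 and 2.44); in ob/ob vehicle every gene except C6 is highest on array 3.

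The spread within groups differed between genes. The SD of *C8b* was 2.36 log2 in ob/ob extract, 0.97 in ob/ob vehicle, with 0.79 in wild-type mice, and that of *C6* was 1.60, 0.34 and 0.41. For *Hc* (0.05, 0.63 and 0.14), *C8a* (0.83, 1.18 and 0.25), *C8g* (0.30, 0.67 and 0.19) and *C9* (0.72, 1.57 and 0.40), in the same order of groups, the SD was largest in ob/ob vehicle. For *C7* it was 0.37, 0.25 and 0.74. Extract 1 was lowest and extract 3 highest for *C6*, *C8a*, *C8b* and *C8g*. In ob/ob vehicle replicate 3 was highest for 6 of the 7 genes. The spread was not tested between groups.

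The last comparison set the extract-treated ob/ob mice against wild type. It shares its wild-type arrays with the first comparison, so the values are given beside each other and not as separate evidence. Of the 5 genes other than *C6* and *C8b*, 2 were called lower and 0 higher: *C8a* (-4.68 log2, SE 0.56, adjusted p = 0.00316) and *Hc* (-1.64, SE 0.31, adjusted p = 0.0304). Of all clusters 0.315% were called lower, 0.977% higher and 1.29% in either direction. The call of *Hc* was lost when any 1 array of ob/ob extract or wild type was left out (adjusted p = 0.0641 to 0.147), whereas *C8a* remained called in all 9 such fits (0.000181 to 0.0271). With both outlying arrays omitted the difference of *Hc* was -1.71 (0.00287) and that of *C8a* -4.63 (0.000177). As descriptions, *C6* differed by -5.72 log2 (SE 0.63) and *C8b* by -4.56 (SE 0.97), or by -5.85 and -5.01 with both outlying arrays omitted.

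*C9* differed by -1.19 log2 (interval -2.66 to 0.28, adjusted p = 0.461). Its groups were just separate, with the highest extract value 0.01 log2 under the lowest wild-type value; in this direction 10.6% of all clusters had groups that did not overlap, as had 3 of these 5 genes. *C8g* (0.11, interval -0.64 to 0.86) and *C7* (-0.18, SE 0.37) were not called, and both their groups overlapped. The median was -1.19 log2 over the 5 genes and -1.64 over all 7, beside -0.05 over all clusters. These medians are the values of *C9*, which was not called, and of *Hc*.

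The genes most like each member were found by the root mean square difference over the 9 arrays, after each gene's own 9-array mean was subtracted, among 17094 named clusters. The likeness is a description over 9 arrays that share their groups. *C6* was nearest to *Egfr*, the epidermal growth factor receptor (0.48 log2), then to *Serpina1e*, a protease inhibitor of the alpha-1-antitrypsin family (0.67), and *Cyp7b1*, an oxysterol hydroxylase (0.69). *C8b* was nearest to *Sult2a8*, a bile acid sulfotransferase (0.66), then *Egfr* (0.91) and the urinary protein gene *Mup21* (1.14). *Egfr* was at 5.61, 6.15 and 8.57 log2 in ob/ob extract, 6.57, 5.85 and 6.04 in ob/ob vehicle, with 12.44, 12.90 and 10.88 in wild type. Its extract arrays 1 and 3 were its lowest and highest of that group, as in both complement genes.

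*C8a* was nearest to *Fam205a2* (0.69), the aldehyde oxidase *Aox3* (0.84) and *Selenbp2* (0.87). *Hc* was nearest to the ubiquitin ligase *Trim63* (0.27), the serine synthesis enzyme *Psph* (0.28) and the pore-forming gasdermin *Gsdmd* (0.30). *C9* had as its nearest gene *Crp*, C-reactive protein (0.46), which was at 12.41 to 13.58 log2 in ob/ob extract, 12.99 to 15.05 in ob/ob vehicle, with 13.61 to 14.53 in wild type. Both had their highest value of all on ob/ob vehicle 3. Next to *Crp* came *Ccn3* (0.49) and *Sec61g* (0.50). *C8g* and *C7*, whose groups overlapped, were nearest to *Dusp2* (0.14) and *Cryba1* (0.20). Among the members themselves *C9* was most like *Hc* (0.69), and *C6* most like *C8b* (1.04).

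**Figure D4:**
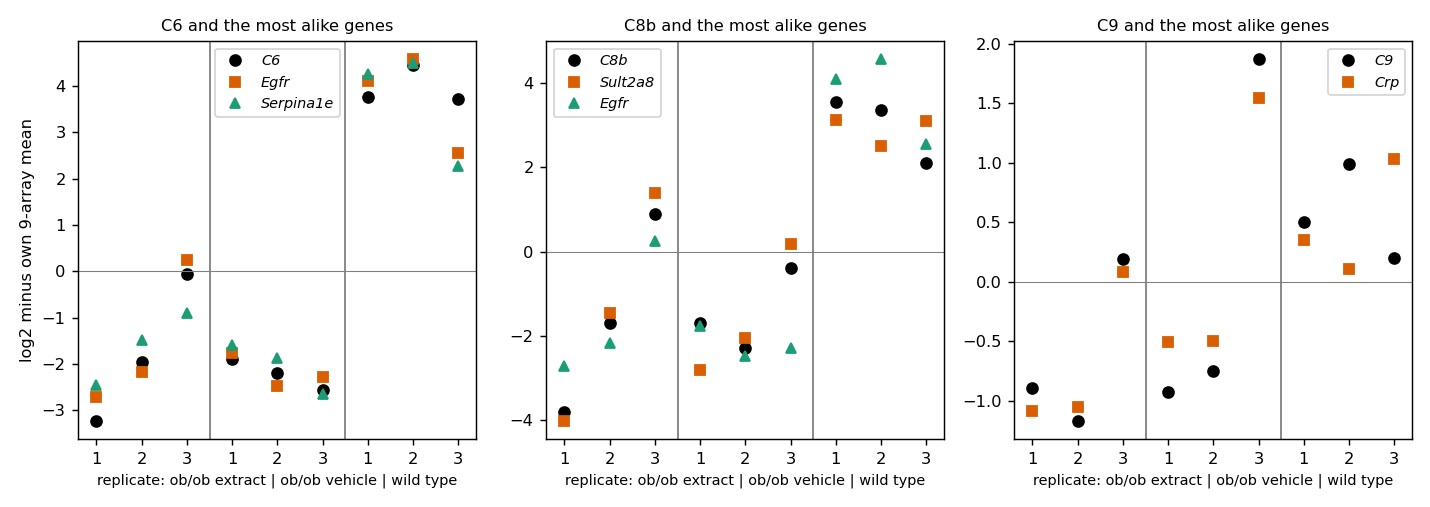
Log2 signal minus the gene's own mean over the 9 arrays for C6, C8b and C9 (black) and the genes most like them (coloured), with replicates 1 to 3 of ob/ob extract, ob/ob vehicle and wild type from left to right. The root mean square difference over the 9 arrays is 0.48 log2 for C6 and Egfr, 0.66 for C8b and Sult2a8, and 0.46 for C9 and Crp. Single arrays can differ by more, as on wild type 3, where C6 is at 3.71 and Egfr at 2.55.

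Of the steps before C5, the list of classical, lectin and alternative pathway genes held 19 genes, of which 17 were measured; *C3* and *Cfd* were not analysed here. In ob/ob vehicle against wild type 1 of the 17 was called lower and 0 higher, beside 0.68% and 2.28% of all clusters. Nothing is read about the list from 1 call, and the list median was -0.24 log2. The called gene was *C2*, the protease of the classical and lectin C3 and C5 convertases, which averaged 9.87 ± 0.82 log2 in ob/ob vehicle, against 12.00 ± 0.41 in wild type (SD, n = 3 each; difference -2.13, SE 0.40, limma adjusted p = 0.0222). Omission of ob/ob vehicle 1, ob/ob vehicle 2, wild type 2 or wild type 3 ended its call (adjusted p = 0.0831, 0.0894, 0.104 and 0.0648), as did a fit of these 2 groups alone (0.0798). Omitting both outlying arrays gave -2.61. The classical pathway protease *C1s1* (-1.28, adjusted p = 0.169) and the recognition chain *C1qb* (0.90, adjusted p = 0.239) followed by p. In extract against wild type *C2* was again called (-2.12, adjusted p = 0.0333). Between extract and vehicle in ob/ob mice 0 of the 17 were called, and the smallest p belonged to properdin, *Cfp* (-1.08, adjusted p = 0.707), and *C1qb* (-1.07, adjusted p = 0.741).

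Among 16 measured regulators and receptors 1 was called between ob/ob vehicle and wild type, beside 2.28% of all clusters called higher and 0.68% lower. Again nothing is read about the list from 1 call. The called gene was higher: *Cd59a*, the membrane-anchored inhibitor that blocks C9 polymerisation. It averaged 12.09 ± 0.52 log2 in ob/ob vehicle, against 9.27 ± 1.12 in wild type (SD, n = 3 each; difference 2.82, SE 0.52, limma adjusted p = 0.0205), opposite in direction to the called pore components. Omission of ob/ob vehicle 1, ob/ob vehicle 2 or wild type 2 ended this call as well (adjusted p = 0.0911, 0.0809 and 0.0831), as did the fit of these 2 groups alone (0.0714). Omitting both outlying arrays gave 2.53. Its paralog *Cd59b* differed by 1.66 (adjusted p = 0.126), and cross-hybridisation between these related genes was not tested. The C3a receptor *C3ar1* differed by 0.67 (adjusted p = 0.25). With the extract *Cd59a* differed from ob/ob vehicle by -0.80 (adjusted p = 0.84), and the receptor *C5ar2* had the smallest p of the list (-0.82, adjusted p = 0.741). The soluble inhibitors of the complex, clusterin (*Clu*, -0.21) and vitronectin (*Vtn*, -0.13), were not called in ob/ob vehicle against wild type. Of the pore-forming relatives, macrophage *Mpeg1* differed by 1.58 (adjusted p = 0.114) and *Prf1*, perforin of cytotoxic lymphocytes, by -0.02 (0.984).

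**Figure D5:**
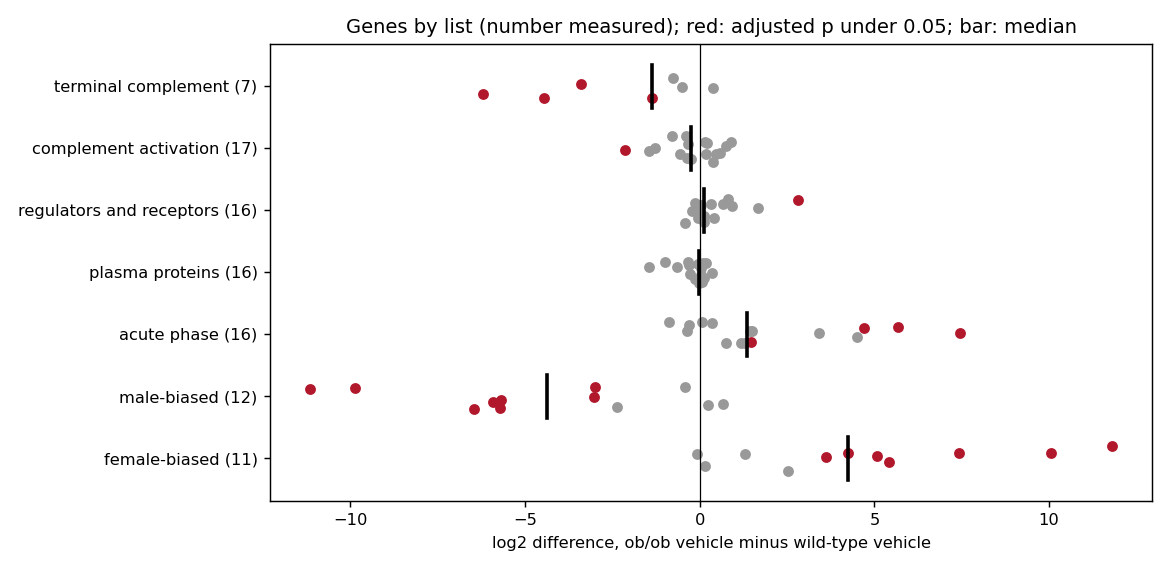
Log2 difference of ob/ob vehicle minus wild-type vehicle for each measured gene of 7 lists, with the number measured in brackets; red marks an adjusted p under 0.05 and the black bar the list median. The list medians are -1.36 for the 7 terminal complement genes, -0.03 for the plasma proteins and -4.36 for the male-biased genes. The first counts C6 and C8b, whose falls were known when the set was formed, and is -0.78 over the other 5 genes. Nothing is read from the order of the lists. The plasma protein list averages near the top of the scale, where differences may be hidden.

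Other proteins that hepatocytes secrete into plasma were set beside the terminal components. Of 16 plasma protein genes 0 were called in any comparison, and their median difference between ob/ob vehicle and wild type was -0.03 log2. Fibrinogen beta (*Fgb*, adjusted p = 0.111) and the HDL protein *Apoa1* (-1.44, adjusted p = 0.114) had the smallest p. Of 12 genes with male-biased expression in liver 8 fell (median -4.36), among them *Egfr* and *Serpina1e*, and of 11 female-biased genes 7 rose (median 4.25). Of 16 acute phase genes 4 rose, led by the orosomucoid *Orm3* (5.66, adjusted p = 0.000822). Beside these counts stand 0.68% of all clusters called lower and 2.28% called higher, and since the lists were chosen with earlier results of these data known, nothing is read from the comparison. Of 13 measured liver transcription factors 1 was called, *Onecut1* (HNF6), with a difference of -3.50 log2 (SE 0.67, adjusted p = 0.0246). Omitting ob/ob vehicle 1, ob/ob vehicle 2, wild type 1, wild type 2 or extract 2 ended that call (adjusted p = 0.0858, 0.0531, 0.0522, 0.107 and 0.0527), as did the fit of these 2 groups alone (0.0548). Omitting both outlying arrays gave -3.80. In extract against ob/ob vehicle 0 genes of these lists were called.

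Besides the hepatocyte markers, 0 of 6 Kupffer cell markers were called in any comparison, and their summed level was 8.17 to 9.59 log2 in ob/ob extract, 10.01 to 10.98 in ob/ob vehicle, with 9.02 to 9.90 in wild type. Of 5 stellate markers 1 was called higher in ob/ob vehicle than in wild type, beside 2.28% of all clusters. All 5 T and NK cell markers and all 3 measured B cell markers lay under the upper limit (97.5th percentile) of the olfactory receptor genes on every array of each group. Of the endothelial, cholangiocyte, neutrophil, erythroid and adipocyte markers 0 were called between ob/ob vehicle and wild type.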

How the data were processed

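Liver RNA of 9 mice, 3 per group, was measured on Clariom S arrays (about 100 ng per sample). The values the authors deposited are log2 signals, 1 per transcript cluster; per the labels' design text, SST-RMA in version 4.0.2 of the Transcriptome Analysis Console produced them. The genome build is not given in the sources used here, and detection calls were not used, so whether a dim gene was above background was judged only against 1091 olfactory receptor clusters. Platform annotation gave 19572 clusters 1 symbol, 0 several and 2634 none.

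A mean per group was fitted to all 9 arrays with limma 3.58.1 in R 4.3.3 (6 residual and 4.45 prior degrees of freedom, eBayes, two-sided), with Benjamini-Hochberg adjustment over 22206 clusters; the code was tested on simulated data. The alternatives were quantile normalization, median centring, omission of the dimmest 30% of clusters, fits of 2 groups, a replicate block, array weights, each array left out, both outlying arrays left out, and the design text's criterion. Besides the 7 genes, the text names up to 3 genes of each of 8 lists by smallest p in ob/ob vehicle against wild type. It also names up to 2 by smallest p in extract against vehicle, and the 3 genes most like a member. *Clu* and *Vtn* were chosen after their values were seen, as were *Egfr*, *Crp*, *Cd59a*, *C2* and *Onecut1* for further values. The members and lists were chosen with earlier results of these data known. With 3 mice in a group, the number of arrays sets the precision.

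Same-numbered arrays of ob/ob vehicle and wild type deviated together (r = 0.256, 0.262 and 0.450), most strongly the outlying arrays. With the extract arrays the correlations were -0.208 to 0.016. The labels give replicate numbers but no pairing, and whether the arrays were paired is not known. The main fit held no pairing term, and the replicate block was run as an alternative.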

Additional observations from a re-analysis of the deposited data

How the results depend on the processing

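The direction of *C6*, *C8a*, *C8b* and *Hc* against wild type held in every alternative run, in both ob/ob groups. The counts of members here include *C6* and *C8b*, whose falls were known when the set was formed. Members called in ob/ob vehicle against wild type numbered 1 to 4 with 1 array left out (4 in the main analysis), and 2 to 4 in extract against wild type (3). Over all clusters the counts, 658, 0 and 287 for the 3 comparisons in the order of the text, ran with 1 array left out from 147 to 1679, 0 to 51 and 77 to 598. They were 2137, 106 and 796 with array weights, 1745, 360 and 595 without both arrays that stood apart, and 3771, 1433 and 3115 by the design text's criterion, which added 1 member (*C8a*) between the ob/ob groups. A fit of only ob/ob vehicle and wild type called 207 clusters and lost *Hc* (adjusted p = 0.137), *C2* (0.0798), *Cd59a* (0.0714) and *Onecut1* (0.0548). The replicate block gave same-numbered arrays of all 3 groups a shared term, the extract arrays included. In ob/ob vehicle against wild type it gave 579 clusters and 3 members, without *Hc* (0.0608), and changed no other member's call. Quantile normalization put the share of higher calls at 53.1% instead of 77.1% in ob/ob vehicle and at 61.2% instead of 75.6% in extract, each against wild type. With array medians subtracted, the median over all clusters became 0.06 instead of -0.06 in ob/ob vehicle and 0.09 instead of -0.05 in extract, each against wild type.

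Small differences that were not called in the comparison concerned changed sign. *C8g* turned to -0.07 and, in extract against wild type, -0.20 with quantile normalization. Between the ob/ob groups array weights gave *Hc* 0.04, *C8b* 0.56 and *C8g* 0.06, and omission of both arrays that stood apart gave *Hc* 0.07, *C8b* 0.44, *C8g* 0.12 and *C9* 0.22. With 1 array left out the ranges between the ob/ob groups were -0.37 to 1.21 (*C6*), -0.51 to 0.07 (*Hc*), -1.31 to 1.05 (*C8b*), -0.50 to 0.12 (*C8g*) and -1.18 to 0.22 (*C9*). They were -0.01 to 0.61 for *C8g* in ob/ob vehicle, and -0.0017 to 0.28 for *C8g* and -0.46 to 0.23 for *C7* in extract, each against wild type. The causes were not tested.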
